A study of Mus musculus with 20 samples.

Results

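The collapsin response mediator proteins (CRMPs) are encoded by 5 genes, Crmp1, Dpysl2, Dpysl3, Dpysl4 and Dpysl5, which were taken by symbol from the 55487 genes of the deposited count table, and all 5 were found. CRMPs are cytosolic phosphoproteins, abundant in growing neurons, that bind tubulin and help microtubules to assemble in extending axons. The repulsive guidance cue semaphorin 3A acts in part through them: binding of the cue to its neuropilin and plexin receptors leads to phosphorylation of CRMPs by Cdk5 and Gsk3b, which loosens their hold on tubulin, so that the growth cone, the tip of the growing axon, collapses. The phosphatase PP2A removes such phosphates, and CRMP2, the product of Dpysl2, also links tubulin and other cargo to kinesin motors and takes part in the endocytosis of L1.

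RNA was sequenced from subcerebral projection neurons, which lie in cortex and send their axons to brainstem and spinal cord, of mice at postnatal day 1. Of 20 libraries, 5 came from cell bodies (somata) of wild-type (WT) neurons and 5 from somata labelled KO for the transcription factor gene Bcl11b, both taken from cortex, and 5 of each genotype came from growth cones taken from brainstem and spinal cord. The labels name no strain, no Cre line or transgene, and no purification marker, and they do not say how many animals were pooled, which part of Bcl11b was deleted or what the experiment number of a library stands for. Nothing in them says that libraries of a group came from separate animals, so p-values measure the spread between these libraries. Total counts ran from 18962308 to 36059112 in WT somata and from 35243688 to 51205154 in somata labelled KO. In growth cones they ran from 26382991 to 29323028 in WT libraries and from 21657575 to 27723067 in libraries labelled KO.

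The targeted gene went against the labels of the somata. Bcl11b stood at 582, 805, 788, 788 and 536 CPM (counts scaled to library size) in WT somata (experiments 12, 14, 22, 25 and 26) and at 1175, 1141, 1127, 1078 and 1230.4 CPM in somata labelled KO (14, 15, 22, 25 and 26), a log2 difference of 0.74 (two-sided exact permutation p = 0.00794, as low as 5 against 5 libraries can give). In growth cones Bcl11b stood at 72.3, 115, 122, 98.3 and 96.8 CPM in WT libraries (7 to 11) and at 69.8, 72.1, 138, 89.2 and 140.5 CPM in libraries labelled KO (7 to 11), with a log2 difference of -0.03 (two-sided exact permutation p = 0.944). Counts cover the whole gene model, so transcripts that keep exons outside a deleted part are counted, and each genotype below is given as the label names it.

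The 10 markers of subcerebral projection neurons, Bcl11b among them, summed to 1984 to 2208 CPM in WT somata and to 2433 to 2659 CPM in somata labelled KO. In growth cones they summed to 769 to 1032 CPM in WT and to 726 to 1035 CPM in libraries labelled KO. Between genotypes, 4 of the 10 were called higher and 2 lower in somata labelled KO, where 0.731% of all genes were called. In growth cones 0 were called between genotypes. Marker sums of several other cell types were higher in growth cone libraries, though not every marker was called. The 8 interneuron markers summed to 546 to 723 CPM there against 11.4 to 62.8 CPM in somata, and the 7 astrocyte markers to 564 to 1091 against 18.4 to 238 CPM. The 8 markers of the oligodendrocyte lineage summed to 589 to 2369 CPM in growth cones and 63.5 to 119 CPM in somata, and the 7 vessel and blood markers to 236 to 585 and 0.596 to 64.4 CPM. In each genotype, 8 of 8 interneuron, 6 of 8 oligodendrocyte lineage and 3 of 6 vessel and blood markers tested were called higher. Of 7 astrocyte markers, 6 were called higher in WT and 5 in the genotype labelled KO. Called lower in these 4 lists were 0. The 7 microglia markers overlapped, at 12.2 to 114 CPM in growth cones and 3.29 to 89.1 CPM in somata, and 1 of 6 tested was called higher in each genotype. The 12 Hox genes, which mark hindbrain and spinal cord, summed to 56.0 to 193 CPM in growth cones and to at most 0.151 CPM in somata, where Hoxa3, Hoxb3, Hoxc4, Hoxc6, Hoxd3 and Hoxd4 were at 0 in all 10 libraries. Of 7 pan-neuronal markers, 3 were called lower and 0 higher in growth cones of each genotype. Of the 10 subcerebral projection neuron markers, 7 were called lower in growth cones of each genotype. Called higher were 1 in WT and 2 in the genotype labelled KO. Among all genes tested, 19.7% in WT and 17% in the genotype labelled KO were called lower, and 23.1% and 21.6% higher.

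In the table's mouse coordinates (build GRCm38), Crmp1 (ENSMUSG00000029121.16) spans chr5:37241940-37292133 on the plus strand with 17 exon blocks of 7046 bases in all, and Dpysl5 (ENSMUSG00000029168.14), which encodes CRMP5, spans chr5:30711564-30799375 on the plus strand with 15 blocks of 7376 bases. Dpysl2 (ENSMUSG00000022048.8) spans chr14:66802864-66868688 on the minus strand with 14 blocks of 4520 bases. The RefSeq model of Dpysl2 extends to base 66911041, so a first exon upstream of the counted model adds nothing to its counts. Dpysl4 (ENSMUSG00000025478.15), which encodes CRMP3, spans chr7:139086001-139102704 on the plus strand with 13 blocks of 5983 bases. None of the 5 members shares an exon base with another gene of the table.

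Because Bcl11b encodes a transcription factor and genotypes were compared, the 250 bases before each annotated start were searched for TGACCA, the motif known for its close relative Bcl11a, on both strands (reverse complement TGGTCA). RefSeq windows (GRCm38.p6) were at hand for 2 of the 5 members, 2 starts of Crmp1 and 1 of Dpysl5. The letters occurred in the Dpysl5 window and in the window of the first Crmp1 start, and not in that of the second Crmp1 start. Of all 32851 windows of this length, 11.4% held them. The sequences below run 5′ to 3′ on the plus strand with the motif in capitals, the Dpysl5 window whole (chr5:30711314-30711563, 62.8% G and C) and 30 bases of the first Crmp1 window (chr5:37241963-37241992, inside the first exon of the counted model).
Dpysl5: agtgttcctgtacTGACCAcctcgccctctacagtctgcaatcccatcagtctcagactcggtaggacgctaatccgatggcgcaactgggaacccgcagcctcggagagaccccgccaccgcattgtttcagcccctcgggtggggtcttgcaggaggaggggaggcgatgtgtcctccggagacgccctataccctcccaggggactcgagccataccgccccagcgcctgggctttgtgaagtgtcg
Crmp1: tggcgctggtctTGGTCAccgtaggctccg
The motif began 237 bases before the start of Dpysl5 and 83 bases before the first start of Crmp1. A match of these letters is a description of the window and not a binding site.

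Levels of different members were compared per length, as RPKM, the CPM divided by the exon length in kilobases, after scaling by the trimmed mean of M values (TMM) over the 20 libraries. In WT somata Crmp1 was at 877 ± 64.9 RPKM, Dpysl3 at 422 ± 31.8, Dpysl5 at 175 ± 25, Dpysl2 at 147 ± 19.2 and Dpysl4 at 36.6 ± 5.67 RPKM (SD, n = 5). Somata labelled KO held the members in this order too, at 797 ± 39.9, 390.1 ± 28.8, 165 ± 7.35, 131 ± 12.3 and 40.3 ± 3.44 RPKM. In WT somata the ranges of the neighbours Dpysl5 (134 to 197 RPKM) and Dpysl2 (118 to 162 RPKM) overlapped. In somata labelled KO they did not (154 to 173 and 113 to 139.5 RPKM), nor did the other neighbours in either genotype. In growth cones the order of the means was Crmp1 (WT 200.4 ± 31.0, labelled KO 184 ± 23.8 RPKM), Dpysl3 (87.4 ± 10.7 and 86.2 ± 5.0), Dpysl2 (75.7 ± 23.2 and 83.1 ± 16.9), Dpysl5 (35.9 ± 6.54 and 38.6 ± 10.4) and Dpysl4 (13.0 ± 3.75 and 13.5 ± 5.63 RPKM). There Dpysl2 changed places with Dpysl5, and its range overlapped that of Dpysl3 in both genotypes. The ranges of Dpysl2 and Dpysl5 overlapped in WT growth cones (41.8 to 102 and 26.6 to 44.4 RPKM) but not in growth cones labelled KO (64.8 to 103 and 25.5 to 49.2 RPKM).

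**Figure D1:**
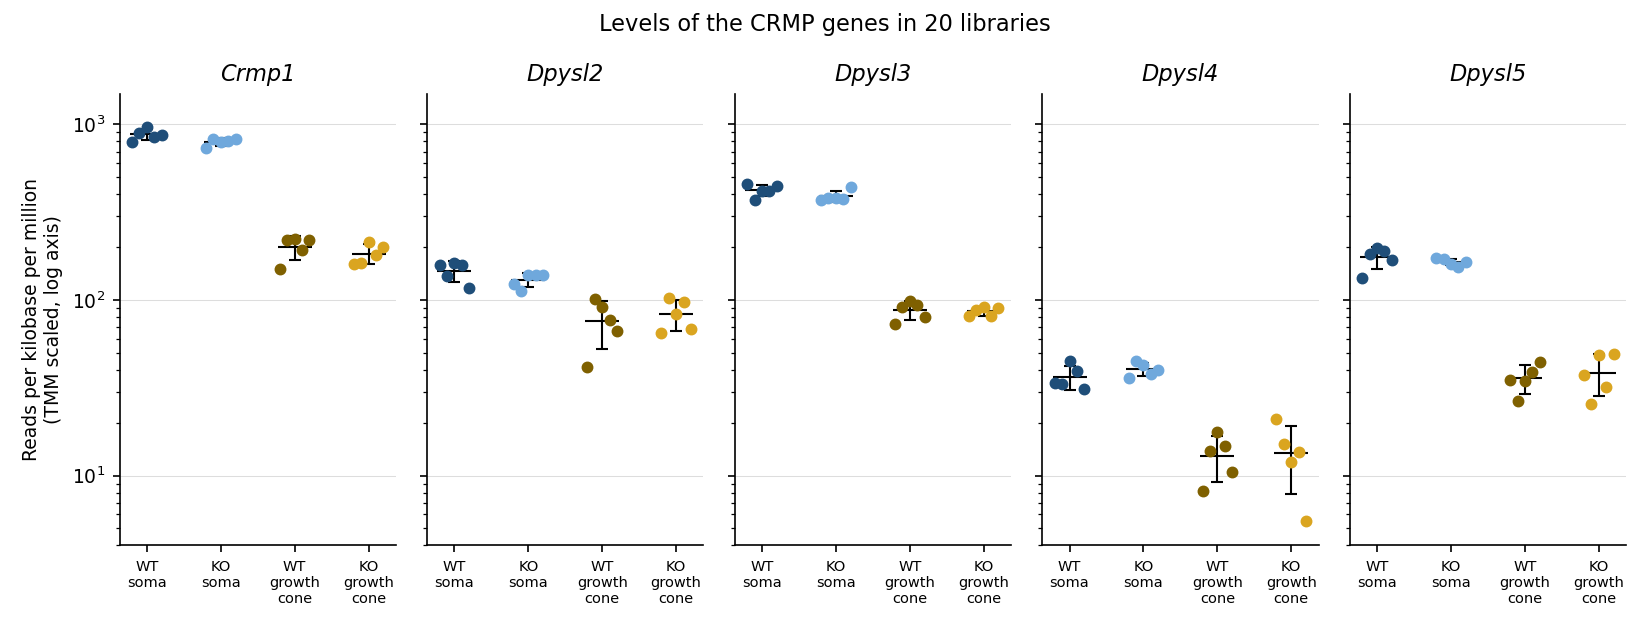
Level of each CRMP gene per length (y axis, RPKM after TMM scaling, log axis) in the 4 groups of 5 libraries, with points for libraries, horizontal marks for means and bars for SD. The growth cone libraries lie below the soma libraries for every member, by the smallest margin for Dpysl2.

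The 5 genes together made up 1.04 ± 0.0318% of all counts in WT soma libraries, 0.963 ± 0.0176% in soma libraries labelled KO, 0.286 ± 0.0417% in WT growth cones and 0.277 ± 0.0304% in growth cones labelled KO (SD, n = 5). Dpys, which encodes the liver enzyme dihydropyrimidinase whose sequence the CRMPs resemble, was near 0: 14 of the 20 libraries held no count, and the largest values were 1.95 CPM in somata and 4.71 CPM in growth cones.

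Growth cones were first compared with somata within each genotype. All 5 CRMP genes were lower in growth cones in both genotypes by edgeR's quasi-likelihood test at an adjusted p under 0.05, and for each of them the highest growth cone library lay below the lowest soma library of the same genotype. Of all genes tested, 19.7% were called lower in WT and 17% in the genotype labelled KO, and 17.3% and 17.5% were lower without overlap of the groups. The median log2 fold change over all genes tested was 0.07 in WT and 0.11 in the genotype labelled KO. Other than that of microglia, the marker sums of other cells given above were higher in the same growth cone libraries. The part of such cells in the fall of the CRMP genes was not tested. In these bulk libraries, fewer cells of a type and less RNA per cell cannot be told apart, nor can tissue of origin (cortex, or brainstem and spinal cord) and compartment. No experiment number was shared by a growth cone and a soma library, so experiment and compartment cannot be told apart either.

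Crmp1, whose product takes part in semaphorin 3A signalling in cortical neurons, was at 5594, 6287, 6853, 6008 and 6152 CPM in WT somata and at 1055, 1544, 1570.3, 1349 and 1543 CPM in WT growth cones. In the libraries labelled KO it was at 5139, 5829, 5629, 5657 and 5819 CPM in somata and at 1130.4, 1139, 1516, 1277 and 1405 CPM in growth cones. Experiment 7 was the lowest growth cone library of each genotype, and the highest growth cone library (1570.3 CPM) lay far below the lowest soma library (5139 CPM). The log2 fold change was -2.09 ± 0.13 in WT (SE, edgeR adjusted p = 3.29e-07, 95% interval -2.36 to -1.81) and -2.04 ± 0.11 in the genotype labelled KO (edgeR adjusted p = 2.96e-07).

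Dpysl3 (ENSMUSG00000024501.20), which encodes CRMP4, a CRMP that also binds actin filaments, spans chr18:43320984-43438286 on the minus strand with 18 blocks of 6608 bases. It was at 3008, 2466, 2763, 2761 and 2942 CPM in WT somata and at 480.0, 605, 652, 622 and 529 CPM in WT growth cones. In the libraries labelled KO it was at 2460.5, 2521, 2512, 2479 and 2915 CPM in somata and at 537, 582, 604, 532 and 592 CPM in growth cones. These were the tightest growth cone values of the family. The log2 fold changes were -2.23 ± 0.12 in WT (edgeR adjusted p = 1.26e-07) and -2.10 ± 0.10 in the genotype labelled KO (edgeR adjusted p = 1.20e-07).

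Dpysl5, whose product restrains neurite growth and can counteract CRMP2, was at 990.2, 1349, 1454, 1405 and 1244 CPM in WT somata and at 258, 196, 254, 287 and 328 CPM in WT growth cones. In the libraries labelled KO it was at 1273, 1256, 1189, 1138 and 1221 CPM in somata and at 277, 188, 359, 236 and 363 CPM in growth cones. Its growth cone values were lowest in experiment 8 in both genotypes. The log2 fold changes were -2.24 ± 0.16 in WT (edgeR adjusted p = 1.07e-06) and -2.01 ± 0.18 in the genotype labelled KO (edgeR adjusted p = 7.43e-06).

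Dpysl4 was the least abundant member, at 202, 199.8, 269.9, 235 and 186 CPM in WT somata and 48.8, 82.3, 106, 88.3 and 62.7 CPM in WT growth cones. In the libraries labelled KO it was at 216, 267, 254, 228 and 239 CPM in somata and 126, 90.7, 71.7, 81.6 and 33 CPM in growth cones, the widest relative spread of any member in any group. The highest and the lowest Dpysl4 values of all growth cone libraries were both in this group, in experiments 7 and 11. The log2 fold changes were -1.45 ± 0.21 in WT (edgeR adjusted p = 0.000160) and -1.5 ± 0.28 in the genotype labelled KO (edgeR adjusted p = 0.00131).

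Dpysl2 had the smallest fall. It was at 717, 615, 730.3, 719 and 531 CPM in WT somata and at 189, 459.7, 412, 349 and 302 CPM in WT growth cones, of which experiment 7 lay far below the other libraries. In the libraries labelled KO it was at 556, 510.0, 631, 628 and 629.8 CPM in somata and at 293, 465, 376, 438 and 307 CPM in growth cones. The gap between the groups was narrow, since the highest growth cone library lay at 465 CPM and the lowest soma library at 510.0 CPM. The log2 fold changes were -0.91 ± 0.21 in WT (edgeR adjusted p = 0.00387, 95% interval -1.37 to -0.46) and -0.57 ± 0.15 in the genotype labelled KO (edgeR adjusted p = 0.00900, 95% interval -0.90 to -0.25). In the genotype labelled KO the call was lost with upper-quartile scaling (log2 fold change -0.37, edgeR adjusted p = 0.0786) and with library totals (-0.45, edgeR adjusted p = 0.0659). Upper-quartile scaling moved the median of all genes to 0.28 in WT and 0.31 in the genotype labelled KO, and library totals to 0.22 in both.

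In WT the fold changes of Dpysl5, Dpysl3 and Crmp1 lay at or below the 5.06, 5.12 and 6.23 percentiles of all genes tested, counted from the lowest fold change, that of Dpysl4 at 13.6 and that of Dpysl2 at 24.7. In the genotype labelled KO they lay at 6.64, 5.91, 6.43, 12.8 and 32.2. Leaving out any 1 library of a comparison left all 5 members called lower.

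**Figure D2:**
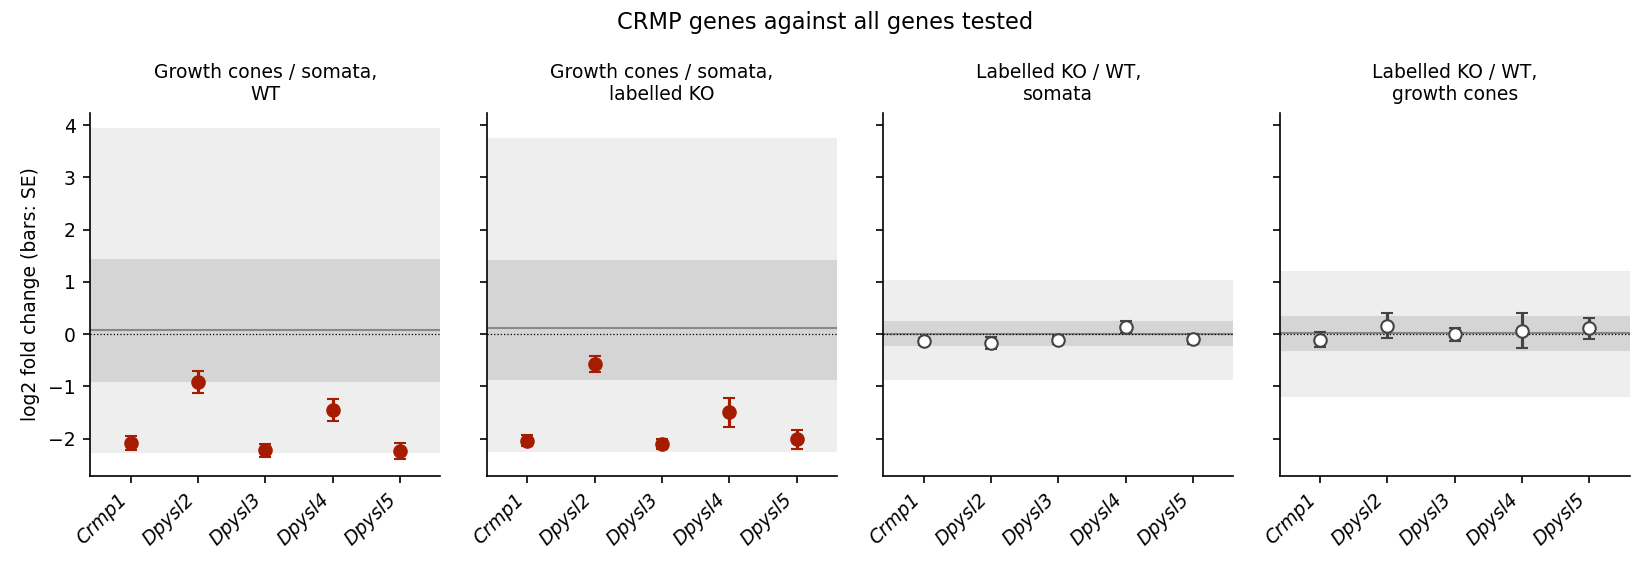
Log2 fold change of each CRMP gene (y axis; bars, SE; filled red, edgeR adjusted p under 0.05; open, not called) in growth cones against somata of each genotype and in libraries labelled KO against WT of each compartment. Grey bands give the central 50% and 90% of all genes tested and the grey line their median; all members lie below the median in the compartment comparisons, with Dpysl2 nearest to it.

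Because Crmp1, Dpysl3 and Dpysl5 fell by similar amounts, Dpysl4 by less and Dpysl2 least, the make-up of the family differed between the compartments. Dpysl2 made up 8.85 ± 1.12% (WT) and 8.59 ± 0.754% (labelled KO) of the summed level per length in the soma groups, but 18.0 ± 3.42% (WT) and 20.6 ± 4.24% (labelled KO) in the growth cone groups (SD, n = 5). The shares did not overlap between the compartments, running from 7.19% to 10.1% over the 10 soma libraries and from 13.6% to 26.2% over the 10 growth cone libraries. Crmp1 remained the largest part, at 52.9 ± 1.98% and 52.3 ± 1.26% in the soma groups and 48.6 ± 2.19% and 45.2 ± 2.98% in the growth cone groups (WT and labelled KO). Its ranges overlapped in WT but not in the genotype labelled KO (50.9% to 53.8% in somata, 41.1% to 48.4% in growth cones). Dpysl3 made up 25.5 ± 2.51% and 25.6 ± 1.10% in somata and 21.3 ± 1.83% and 21.3 ± 1.14% in growth cones. Its ranges too overlapped in WT but not in the genotype labelled KO (24.8% to 27.4% in somata, 19.9% to 22.4% in growth cones). Dpysl4 made up 2.20 ± 0.245% and 2.64 ± 0.194% in somata and 3.11 ± 0.568% and 3.40 ± 1.63% in growth cones, with overlapping ranges in both genotypes. Shares of 1 sum are tied to each other, and they are given as a description without a test.

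**Figure D3:**
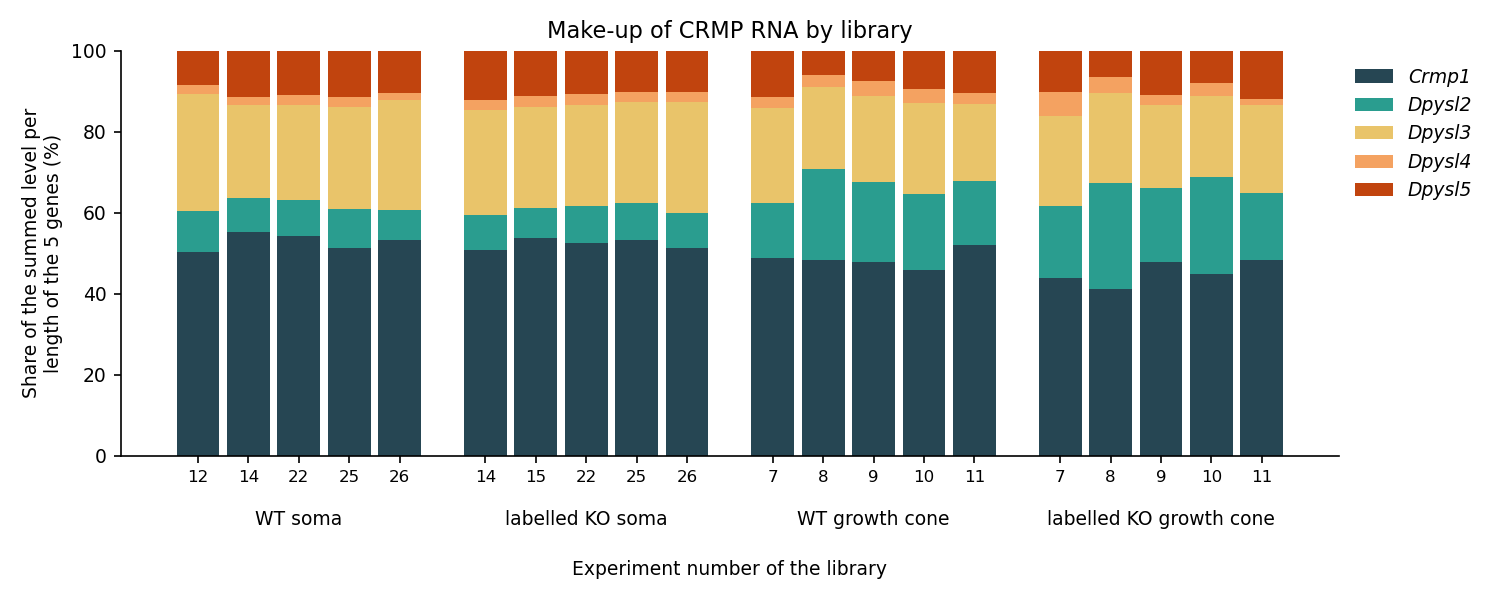
Share of each CRMP gene in the summed level per length of the 5 genes (y axis, percent) in each library, ordered by group and experiment number. The band of Dpysl2 is wider in all 10 growth cone libraries (13.6% to 26.2%) than in any soma library (7.19% to 10.1%).

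Ratios between members within a library do not depend on how libraries are scaled. Of the 10 pairs of members, 3 had ratios that did not overlap between the 10 soma and the 10 growth cone libraries, and all 3 involved Dpysl2. Crmp1 was 5.0 to 7.43 times Dpysl2 per length in somata and 1.57 to 3.58 times in growth cones. Dpysl2 was 0.264 to 0.386 times Dpysl3 in somata and 0.575 to 1.20 times in growth cones. Against Dpysl5, Dpysl2 was 0.663 to 1.18 times in somata and 1.20 to 4.04 times in growth cones, where it exceeded Dpysl5 in every library. The ratio of Crmp1 to Dpysl3 overlapped (1.74 to 2.39 in somata, 1.84 to 2.73 in growth cones), as did those of Crmp1 to Dpysl5, of Dpysl3 to Dpysl5 and all 4 that involve Dpysl4. Within WT alone, however, the ratios of Crmp1, Dpysl3 and Dpysl2 to Dpysl4 did not overlap. Crmp1 was 21.6 to 28.1 times Dpysl4 in WT somata and 12.5 to 20.9 times in WT growth cones. Dpysl3 was 9.27 to 14.3 and 5.56 to 8.90 times Dpysl4, and Dpysl2 was 3.58 to 4.69 and 5.12 to 7.40 times. In the genotype labelled KO these ratios overlapped.

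The ratio of Dpysl2 to Dpysl5 varied among growth cone libraries. In WT growth cones of experiments 7 to 11 it was 1.20, 3.82, 2.65, 1.98 and 1.5, and in growth cones labelled KO it was 1.73, 4.04, 1.71, 3.02 and 1.38. Experiment 8 had the highest ratio in both genotypes, in libraries where Dpysl2 was high and Dpysl5 low. In somata the ratio passed 1 in 1 library, WT experiment 12 (1.18), where Dpysl5 was lowest.

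**Figure D4:**
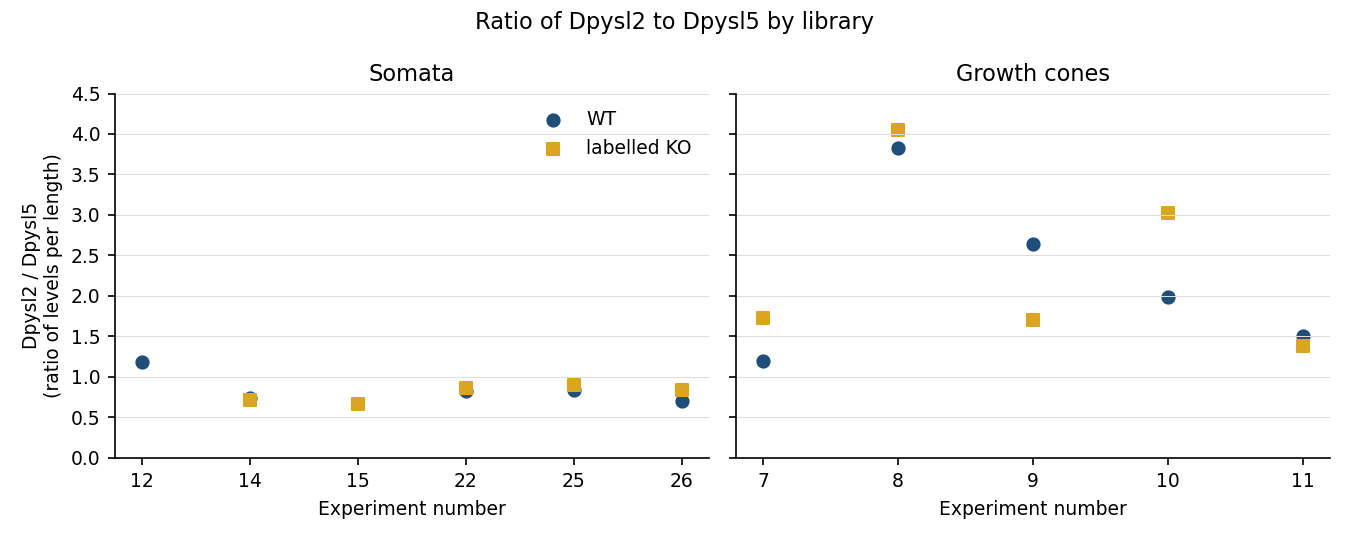
Ratio of the Dpysl2 level to the Dpysl5 level per length (y axis) by experiment number (x axis) in somata and growth cones of both genotypes, 1 point per library. Growth cone libraries lie between 1.20 and 4.04 and soma libraries between 0.663 and 1.18, with experiment 8 highest in both genotypes.

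Libraries labelled KO were then compared with WT libraries, which asks whether CRMP RNA differed between the genotypes as labelled. Bcl11b itself was higher in somata labelled KO and did not differ in growth cones, so its loss is not shown in these libraries. None of the 5 members passed the test in somata, where 0.731% of the 14911 genes tested did, nor in growth cones, where 0% of 15419 genes did by edgeR (329 at an unadjusted p under 0.05, and 11 by DESeq2). Counts of called members were 0 by DESeq2 and limma-voom also, and the groups overlapped for each member in both compartments; of all genes, 3.13% in somata and 0.48% in growth cones had groups without overlap. At an unadjusted p under 0.05 edgeR picked 1 member in somata, Crmp1, and 0 in growth cones, against 1278 of the 14911 genes tested in somata.

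In somata, Crmp1 had a log2 fold change of -0.14 ± 0.06 (SE, unadjusted p = 0.0469 and adjusted p = 0.568 by edgeR, 95% interval -0.28 to -0.0023). Dpysl2 had -0.17 ± 0.11 (interval -0.40 to 0.06), Dpysl3 -0.12 ± 0.07 (-0.28 to 0.05) and Dpysl5 -0.09 ± 0.10 (-0.30 to 0.12). Dpysl4 had 0.14 ± 0.11 (-0.11 to 0.38). The edgeR adjusted p of these members ran from 0.568 to 0.966. The intervals of all 5 lay between -0.40 and 0.38 on the log2 scale, and the summed level of the family was 1657 ± 82.9 RPKM in the WT group and 1523 ± 63.8 RPKM in the group labelled KO (SD, n = 5).

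In growth cones the intervals were wider. The log2 fold changes were -0.11 ± 0.14 for Crmp1 (95% interval -0.42 to 0.20), 0.16 ± 0.23 for Dpysl2 (-0.35 to 0.67), -0.01 ± 0.13 for Dpysl3 (-0.28 to 0.27), 0.07 ± 0.33 for Dpysl4 (-0.65 to 0.78) and 0.11 ± 0.21 for Dpysl5 (-0.34 to 0.56), each with an edgeR adjusted p of 0.999. Dpysl3 was thus the member whose change was most closely bounded there and Dpysl4 the least. The summed levels were 412 ± 62.3 RPKM in WT and 405 ± 31.0 RPKM in growth cones labelled KO.

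The compartment difference was compared between the genotypes by an interaction term over all 20 libraries, with which 0.0397% of 17645 genes passed. None of the 5 members did, by edgeR, DESeq2 or limma-voom, and 0 had an unadjusted edgeR p under 0.05, against 1231 of all genes. The term was largest for Dpysl2, at 0.30 ± 0.26 (95% interval -0.25 to 0.85), followed by Dpysl5 at 0.19 ± 0.23, Dpysl3 at 0.09 ± 0.13, Dpysl4 at -0.08 ± 0.36 and Crmp1 at 0.01 ± 0.15, all with an edgeR adjusted p of 1.00. The smaller fall of Dpysl2 in the genotype labelled KO was therefore not shown to differ from that in WT.

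The genes that act with CRMPs were read from lists, each given by its counts beside the share of all genes called in the same comparison (lower, 19.7% in WT and 17% in the genotype labelled KO; higher, 23.1% and 21.6%). Tubulins, which CRMPs bind, were the most uniform group. Of 6 tubulins, 5 were lower in growth cones in each genotype and 0 higher, with a median log2 fold change of -2.02 in WT and -1.90 in the genotype labelled KO. Tubb2a fell by 2.54 ± 0.13 in WT (edgeR adjusted p = 8.51e-08), and its log2 fold change was -2.32 ± 0.12 in the genotype labelled KO. Tuba1a, the main alpha tubulin of young neurons, had -2.12 ± 0.12 in WT, with 31729 ± 4569 CPM in somata and 7078 ± 439.7 CPM in growth cones (SD, n = 5). Tubb3, the neuronal beta tubulin, fell by 1.85 ± 0.16 in both genotypes. Tubb5 fell in both (-1.93 ± 0.13 in WT, -1.79 ± 0.15 in the genotype labelled KO), as did Tubb2b (-2.35 ± 0.22 and -2.36 ± 0.19). The exception was Tuba1b, at -0.09 ± 0.17 in WT and 0.04 ± 0.14 in the genotype labelled KO, chosen after its values were seen.

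Among 12 partners of CRMPs in transport, endocytosis, actin and channel traffic, 7 were lower and 1 higher in WT growth cones, and 10 were lower and 1 higher in growth cones labelled KO (median -0.78 and -1.06). L1cam, the adhesion molecule taken up with CRMP2, fell in WT (-1.73 ± 0.21) and in the genotype labelled KO (-1.93 ± 0.14). Klc1, the kinesin light chain that CRMP2 binds, fell in both (-0.90 ± 0.12 and -1.08 ± 0.16), as did Wasf1, an actin regulator carried by way of CRMP2 (-0.82 ± 0.13 and -1.03 ± 0.10; edgeR adjusted p of 0.000285 or less for these 3 genes). Cyfip1, which sits in a complex with Wasf1, fell in both genotypes (-1.38 ± 0.31 and -1.82 ± 0.32), as did the kinesin heavy chain Kif5c (-0.82 ± 0.19 and -1.29 ± 0.19). The gene called higher in both genotypes was the calcium channel gene Cacna1b (1.36 ± 0.37 and 1.81 ± 0.39), chosen after its values were seen.

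Of 13 genes of the semaphorin 3A path, 5 were lower and 1 higher in WT growth cones, and 7 were lower and 1 higher in growth cones labelled KO (median -0.31 and -1.21). The count labelled KO depended on scaling, with 4 lower by upper-quartile scaling and 5 by library totals. In WT 5 were lower by either. The plexin receptor genes Plxna1 (-1.71 ± 0.30 in WT, -1.26 ± 0.16 in the genotype labelled KO) and Plxna2 (-1.72 ± 0.39 and -1.67 ± 0.24) fell in both, as did Rac1, a GTPase of the collapse response (-1.21 ± 0.13 and -1.12 ± 0.13). Txn1, which encodes thioredoxin and acts on oxidised CRMP2, rose by 1.82 ± 0.15 in WT (edgeR adjusted p = 3.28e-06) and 1.78 ± 0.21 in the genotype labelled KO, from 144 ± 27.3 to 494 ± 58.7 CPM in WT libraries (SD, n = 5).

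Kinases that act on CRMPs moved both ways. Of 12 tested, 4 were lower and 2 higher in WT growth cones and 3 were lower and 2 higher in growth cones labelled KO (median -0.15 and 0.02). Cdk5 itself, the priming kinase, was not called in WT (-0.11 ± 0.18, edgeR adjusted p = 0.661) or in the genotype labelled KO (-0.06 ± 0.15, edgeR adjusted p = 0.782), and was chosen after its values were seen. Its p35 activator Cdk5r1 was higher in WT growth cones, at 256 ± 68.3 CPM against 99.3 ± 13.4 CPM (log2 fold change 1.41 ± 0.20, edgeR adjusted p = 0.000126). In the genotype labelled KO, Cdk5r1 rose by 1.18 ± 0.19. Cdk5r2, the p39 activator, rose by 1.58 ± 0.38 in the genotype labelled KO. In WT it had 1.05 ± 0.39 (edgeR adjusted p = 0.0446), a call that was lost without any 1 of WT soma libraries 14, 22, 25 and 26 and WT growth cone libraries 8, 9 and 10 (edgeR adjusted p up to 0.0992). That call was also lost with no low-count filter (1.01, edgeR adjusted p = 0.0801) and with detected genes as covariate (1.07, edgeR adjusted p = 0.0546). Gsk3b, the kinase that follows Cdk5 on CRMPs, fell in WT (-0.94 ± 0.22) and in the genotype labelled KO (-0.90 ± 0.19), as did Camk2b, a calcium-dependent kinase (-2.18 ± 0.22 and -1.83 ± 0.25). Fyn, a tyrosine kinase that phosphorylates CRMP2 in semaphorin 3A signalling, fell by 0.89 ± 0.12 in WT growth cones and by 0.65 ± 0.18 in growth cones labelled KO, where upper-quartile scaling ended the call (edgeR adjusted p = 0.0591).

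Of 7 PP2A subunits, 4 were lower and 2 higher in WT growth cones and 3 were lower and 1 higher in growth cones labelled KO (median -0.83 and -0.76). The scaffold subunit Ppp2r1a fell in both genotypes (-1.92 ± 0.12 in WT, -1.70 ± 0.14 in the genotype labelled KO), and so did 1 catalytic subunit, Ppp2ca (-0.87 ± 0.13 and -0.76 ± 0.11). The other catalytic subunit, Ppp2cb, rose by 0.60 ± 0.15 in WT (edgeR adjusted p = 0.00723). It was not called in the genotype labelled KO (0.44 ± 0.19, edgeR adjusted p = 0.0892), and was chosen after its values were seen. The other scaffold subunit, Ppp2r1b, fell by 2.16 ± 0.35 in WT and was not called in the genotype labelled KO (-1.31 ± 0.73, edgeR adjusted p = 0.185). The regulatory subunit Ppp2r2a fell in both (-0.83 ± 0.16 and -0.90 ± 0.18). Ppp2r2c, also a regulatory subunit, rose by 1.15 ± 0.18 in the genotype labelled KO (edgeR adjusted p = 0.000377) and by 0.80 ± 0.24 in WT, a call lost without WT soma library 22 (edgeR adjusted p = 0.0511).

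**Figure D5:**
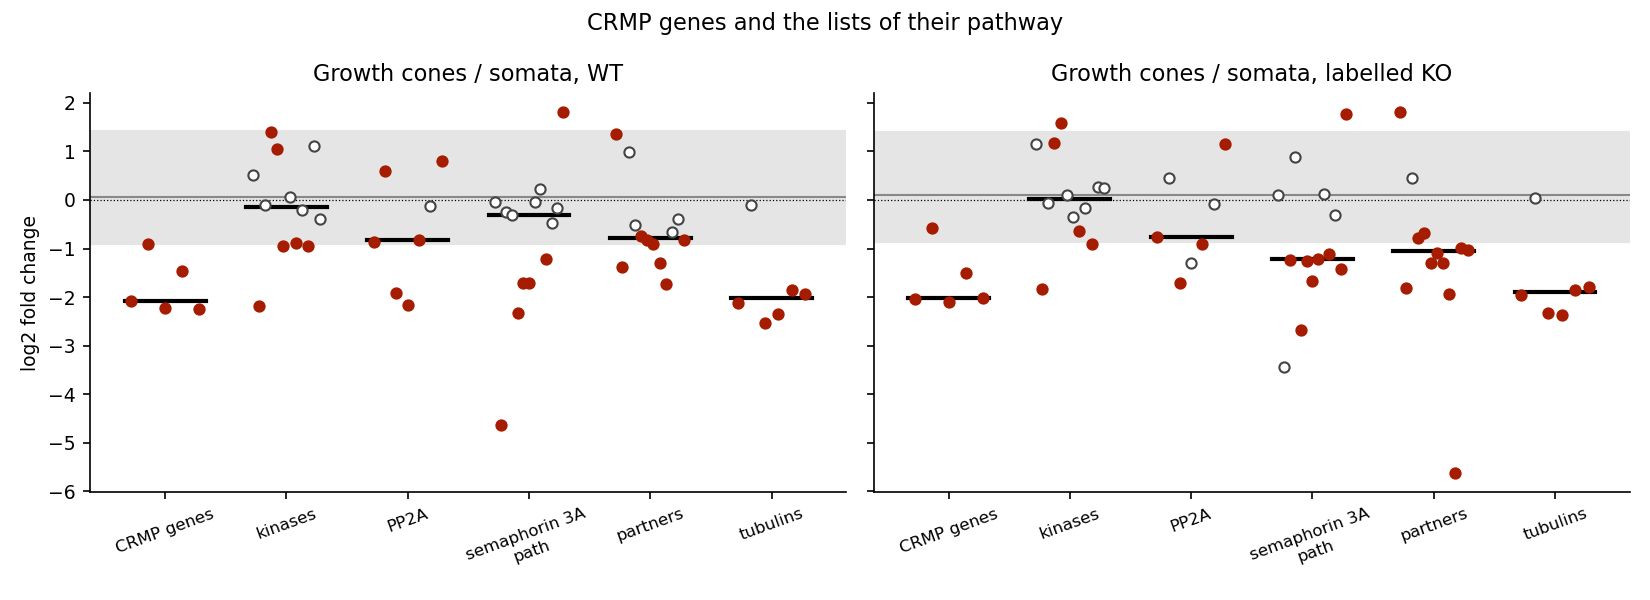
Log2 fold change in growth cones against somata (y axis) of the CRMP genes and of 5 lists of genes that act with them, in WT and in the genotype labelled KO (filled red, called by edgeR; open, not called; black bars, list medians; grey band and line, central 50% and median of all genes tested). The called tubulins of WT lie between -2.54 and -1.85, while the kinase and PP2A lists hold called genes on both sides of 0.

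Between the genotypes, 1 of 50 genes of these lists passed edgeR's test in somata (0.731% of all genes), 0 of 49 in growth cones (0%) and 0 of 51 for the interaction (0.0397%). Fyn was lower in somata labelled KO, at 429.9 ± 15.1 CPM against 600.4 ± 40.8 CPM in WT somata (SD, n = 5; log2 fold change -0.49 ± 0.07, edgeR adjusted p = 0.00721). The call was lost when all 20 libraries entered the fit (-0.48, edgeR adjusted p = 0.418). In somata the PP2A subunit Ppp2r1b narrowly missed the threshold (-0.55 ± 0.11, edgeR adjusted p = 0.0506), and was chosen after its values were seen. With upper-quartile scaling 1 PP2A subunit was called lower in somata labelled KO. At an unadjusted edgeR p of 0.000449, Numb, an endocytic adaptor bound by CRMP2, was at 4.93, 3.13, 7.51, 9.49 and 0.958 CPM in WT growth cones of experiments 7 to 11 and at 0.0415, 0.0724, 0.0692, 0.416 and 0.0900 CPM in growth cones labelled KO. Its edgeR adjusted p was 0.990 there, so the difference did not pass the test, and Numb was chosen after its values were seen.

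The genes with the pattern most like each member over the 20 libraries were found among the 7658 genes that averaged 20 CPM or more, by the root mean square difference of centred log2 profiles (0 for equal profiles). For Crmp1 these included Uqcrc1, a subunit of respiratory complex III (0.175), and the orphan receptor gene Gpr85 (0.195). Those of Dpysl3 included Uqcrc1 (0.176) and the membrane protein gene Sez6 (0.199). The likeness of Crmp1 and Dpysl3 to each other (0.151) was closer than to these genes.

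Dpysl5 was most like the ubiquitin ligase gene Trim2 (0.235), the sterol enzyme gene Sqle (0.244) and the deubiquitinase gene Usp22 (0.250), and differed from Crmp1 by 0.242 and from Dpysl3 by 0.279. The genes most like Dpysl4 included the RNA-binding protein gene Hnrnpab (0.275) and the translation factor gene Eif2s3x (0.283). Dpysl2 was most like Mapk6, an atypical MAP kinase gene (0.215), the chaperone gene Hsp90aa1 (0.256) and the aminotransferase gene Got1 (0.266). Its distance from the other CRMP genes was 0.538 to 0.819, so the members nearest in pattern were Crmp1, Dpysl3 and Dpysl5, and Dpysl2 and Dpysl4 stood apart from them. Every profile here holds the compartment difference, which the members share in direction.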

How the data were processed

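The authors deposited raw gene counts as 1 table of 20 libraries, made from RNA with SMART-seq v4 and Nextera XT per the labels' protocols. The submitters' processing notes name Trimmomatic 0.39, STAR 2.7.1a, featureCounts 1.5.0 and the build GRCm39, while the coordinates in the deposited table are those of GRCm38. The use of strand and the handling of reads with several matches are not given in the sources used here. Symbols were matched to 55141 of 55487 genes, and 0 entries name no gene. Groups came from library titles, and no replicate pair was alike within sampling noise (smallest chi-square per degree of freedom 52.7).

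Whole tables were fitted with edgeR 4.0.16 in R 4.3.3 (filterByExpr with a minimum count of 10, TMM, quasi-likelihood F test, Benjamini-Hochberg adjustment, threshold 0.05), each comparison on its own groups and the interaction on all 20 libraries. Standard errors come from the F statistic. Levels are CPM, or RPKM by the deposited exon length, with TMM over 20 libraries; marker sums are relative to library totals. All 5 members passed the filter in each comparison. Bcl11b was also compared by exact permutation of log2(CPM + 0.5). Alternatives were other scalings, no filter, DESeq2 1.42.0, limma-voom (limma 3.58.1), detected genes as a covariate, a joint fit, a replicate block and leaving out each library. The fits were tested on simulated data. Members and lists were chosen with earlier results of these data known. The named genes are the 5 members, Bcl11b, Dpys, the 3 nearest patterns per member, and from each list up to 4 genes with the lowest p past the threshold per comparison. Some genes that this rule allows are not reported here.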

Additional observations from a re-analysis of the deposited data

Results flagged for a closer look

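Of 44 values (an item in a group of 5 libraries) examined for a library far from the others, 2 stood out by Dixon's ratio of gap to range (critical value 0.71 for 5 libraries), and chance flags about 1 in 20 groups. Crmp1 in the soma library labelled KO of experiment 14 was low, at 5139 CPM, with a ratio of 0.711 just past the critical value. Dpysl3 in the soma library labelled KO of experiment 26 was high, at 2915 CPM, with a ratio of 0.867. Neither value changed a call when its library was left out: Crmp1 and Dpysl3 were not called between genotypes in somata and were called lower in growth cones in every such fit.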

How the results depend on the processing

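All 5 members were called lower in growth cones of both genotypes under every alternative, except that Dpysl2 in the genotype labelled KO was not called with upper-quartile scaling or library totals, and 0 members were called between genotypes or for the interaction under any. The count of all genes called between genotypes in somata, 109, was 402 by DESeq2, 30 with all 20 libraries in the fit, 34 with the replicate block and 67 to 107 with 1 library left out (68 without WT experiment 22, 67 without experiment 22 labelled KO). In growth cones the count of 0 became 11 by DESeq2 and 7 with all 20 libraries. For the interaction, 7 became 262 by DESeq2, 4 with detected genes as covariate, 0 with the block and 5 to 12 with 1 library left out (12 without WT growth cones of experiment 7, 11 without those labelled KO). The cause of these shifts was not tested.

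Small genotype differences changed sign. In growth cones Dpysl3 was 0.0011 by limma-voom and -0.065 to 0.037 with 1 library left out, Dpysl4 was -0.014 with the replicate block and -0.13 to 0.27 with 1 left out, and Bcl11b was -0.018 by limma-voom, -0.016 with the block and -0.11 to 0.15 with 1 left out (exact test -0.16 to 0.090). The interaction ran from -0.082 to 0.062 for Crmp1 and from -0.30 to 0.10 for Dpysl4 with 1 library left out. Bcl11b in somata, 0.71 by edgeR (adjusted p = 0.0153), was not called with detected genes as covariate (0.63, edgeR adjusted p = 0.0591), all 20 libraries (0.72, adjusted p = 0.279) or the block (0.68, adjusted p = 0.162), with folds close to the first. Fyn in somata was not called with the block (-0.50, edgeR adjusted p = 0.0690).

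Without division by length, the share of Crmp1 in the family was 55.4% in WT somata, 54.8% in somata labelled KO, 52.7% in WT growth cones and 49.5% in growth cones labelled KO. Same-numbered WT and KO libraries had deviations from their group means that correlated at 0.0115 to 0.134 in somata (4 pairs) and 0.0262 to 0.109 in growth cones (5 pairs), all positive, while pairs of other numbers had medians of -0.014 and -0.011. Not every library correlated best with its own number: WT growth cones of experiment 9 had 0.0487 with experiment 10 labelled KO and 0.0467 with their own. Depth was not limiting for the members, whose smallest count in any library was 734 (Dpysl4).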
